A study of Mus musculus with 20 samples.

Results

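Icam1, Icam2, Vcam1, Sele, Selp and Ackr1 encode leukocyte adhesion molecules of the vascular wall. They were taken by name from the count table, in which all 6 are among the 55866 genes listed and all 6 hold counts in at least 1 library. Endothelial RiboTag (RiboTagEC) mice of the genotype Rpl22HA/HA x Cdh5CreERT2 hold Rpl22, a protein of the ribosome, with a hemagglutinin (HA) tag in cells where Cdh5-driven Cre was active after tamoxifen, and immunoprecipitation (IP) of the tag recovers ribosome-bound mRNA from a homogenate of the whole tumor (input). Female C57BL/6J mice received 75 mg/kg of tamoxifen for 5 days at 3 weeks of age and Py8119 mammary tumor cells at 8 weeks, and were then injected intravenously 2 times per week for 10 days with 25 mg/kg of 6-3-A6, an antibody that blocks Notch4, or with control mouse IgG. The 2 groups therefore share the tag, the Cre, the tamoxifen and the tumor. Treatment began at about 30 mm3 according to the protocol and at an average of 50 mm3 according to the design text. Input and IP of 5 tumors per treatment were sequenced, which gave 20 libraries of 11881214 to 26728205 counts with a median of 16942643.

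Leukocytes leave the blood in steps. Selectins on activated endothelium, E-selectin (Sele) and P-selectin (Selp), bind carbohydrate ligands and let the cells roll. Chemokines held at the vessel surface then activate leukocyte integrins, which bind the immunoglobulin family members Icam1, Icam2 and Vcam1 and arrest the cell. Ackr1, an atypical chemokine receptor of venular endothelium and red cells, binds chemokines without signaling through G proteins. Icam2 is made by resting endothelium, whereas Sele, Vcam1 and Icam1 are classically induced by inflammatory cytokines through NF-kB. Vcam1 and Icam1 are not limited to endothelium and are also made by macrophages and stromal cells.

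The IP fraction held RNA from cells other than endothelium. All 17 of 17 endothelial markers were called higher in IP than in input (edgeR quasi-likelihood test, adjusted p under 0.05, the meaning of called throughout), with a median log2 fold change of 4.36. The summed macrophage markers still lay between 3204 and 8883 CPM (counts scaled to library size) in the IP libraries, against 6298 to 15102 CPM in input. Of the 12 macrophage markers, Itgam was at 0 in every library. The study kept 6 IP libraries after a principal component analysis, namely numbers 2, 4 and 5 of control IgG and 1, 3 and 4 of 6-3-A6, and left out the other 4. Both sets of IP libraries are given below. The library of 6-3-A6 input 4 stood apart, with a TMM scaling factor (the correction of library size for composition) of 0.681 against 0.894 to 1.12 in the other libraries, and a mean log2 CPM of the endothelial markers of 1.60 against 2.38 to 2.90 in the other input libraries. Replicates with the same treatment and number in IP and input are the same tumor, and different numbers are different tumors. In this bulk RNA, fewer cells of a type and less RNA per cell cannot be told apart.

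Of the 6 genes 4 matched a promoter window, namely Icam1, Sele, Selp and Ackr1, and Icam2 and Vcam1 did not. The windows are shown because Sele and Icam1 are known NF-kB targets, because Sele and Selp had the most similar levels across the IP libraries, and because Ackr1 lacks the kappaB motif that the other 3 hold. Each runs 5′ to 3′ along the gene's strand from 250 bases before to 50 bases after the start site (RefSeq, GRCm38.p6). Capitals mark a match to kappaB, spelled GGG, any 5 bases, CC, on either strand. The windows are chr9:21015690-21015989 (plus strand) for Icam1, chr1:164047984-164048283 (plus strand) for Sele, chr1:164115014-164115313 (plus strand) for Selp and chr1:173333454-173333753 (minus strand) for Ackr1.
Icam1: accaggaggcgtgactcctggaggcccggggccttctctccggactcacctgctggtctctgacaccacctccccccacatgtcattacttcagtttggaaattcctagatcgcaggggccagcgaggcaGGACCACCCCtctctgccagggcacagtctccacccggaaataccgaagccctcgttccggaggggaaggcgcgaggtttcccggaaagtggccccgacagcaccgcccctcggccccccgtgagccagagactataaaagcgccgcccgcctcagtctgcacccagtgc
Sele: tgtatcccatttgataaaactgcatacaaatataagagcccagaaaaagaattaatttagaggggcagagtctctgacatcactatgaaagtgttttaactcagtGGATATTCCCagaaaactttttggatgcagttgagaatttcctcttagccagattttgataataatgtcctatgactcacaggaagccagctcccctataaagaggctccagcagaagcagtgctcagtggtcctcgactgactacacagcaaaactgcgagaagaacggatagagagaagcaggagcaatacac
Selp: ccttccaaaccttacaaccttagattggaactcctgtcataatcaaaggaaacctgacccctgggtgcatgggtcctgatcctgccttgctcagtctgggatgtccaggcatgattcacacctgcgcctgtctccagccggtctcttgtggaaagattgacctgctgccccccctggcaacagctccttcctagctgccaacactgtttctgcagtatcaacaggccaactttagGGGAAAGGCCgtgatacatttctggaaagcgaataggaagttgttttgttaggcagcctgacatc
Ackr1: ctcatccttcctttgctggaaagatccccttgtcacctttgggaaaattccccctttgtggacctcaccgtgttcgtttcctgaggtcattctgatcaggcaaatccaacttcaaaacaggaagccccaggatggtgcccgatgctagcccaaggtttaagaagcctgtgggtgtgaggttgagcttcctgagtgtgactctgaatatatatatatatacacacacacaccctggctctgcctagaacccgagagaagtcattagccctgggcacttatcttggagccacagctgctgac

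Counted from the start site, the kappaB matches began at -120 in Icam1, -145 in Sele and -15 in Selp. Such a match is common, in 50.8% of all 32851 windows of this length. Both selectin windows also held AP-1, spelled TGANTCA, at -73 in Sele and -139 in Selp, which 7.81% of windows hold. STAT, spelled TTC, any 3 bases, GAA, matched in Icam1 and Sele (8.30% of windows), and in Sele it overlaps the kappaB match. RBPJ, spelled TGGGAA, the motif of the Notch-bound factor, matched in Sele, within the STAT match and overlapping the kappaB match, and in Ackr1 (25.6% of windows). TATAAA matched in Icam1 and Sele (13.6% of windows) and GATA, spelled AGATAA, in Ackr1 (11.2%). All motifs were searched on both strands. The matches are letters in a window and carry no measurement of binding.

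Over exon length, Vcam1 had the highest mean level of the 6 genes in all 4 groups of 5 libraries. It reached 77.8 ± 18.9 CPM per kb of exon (SD, n = 5) in control IgG input and 47.3 ± 15.2 (SD, n = 5) in control IgG IP. Icam2 took the next place in IP, with 26.0 ± 15.5 CPM per kb (SD, n = 5) in control IgG, and the third place in input, with 1.42 ± 0.190 (SD, n = 5). Icam1 had 6.05 ± 0.913 CPM per kb in control IgG input and 5.16 ± 1.11 in control IgG IP (SD, n = 5). Ackr1 was at 1.99 ± 0.753 CPM per kb in control IgG IP, Sele at 0.747 ± 1.07 and Selp at 0.603 ± 0.519 (SD, n = 5). The spreads (mean ± SD) of Vcam1 and Icam2 overlapped there, as did those of Ackr1 and Sele and those of Sele and Selp. In 6-3-A6 IP the order was Vcam1 with 33.8 ± 19.1 CPM per kb, Icam2 with 24.6 ± 11.7, Icam1 with 3.41 ± 2.51, Ackr1 with 2.33 ± 2.12, Selp with 0.334 ± 0.256 and Sele with 0.143 ± 0.182 (SD, n = 5). The spreads of Vcam1 and Icam2 overlapped, as did those of Icam1 and Ackr1, and those of Ackr1, Selp and Sele. Over the 3 libraries of 6-3-A6 IP kept by the study, Icam2 stood above Vcam1, with 28.8 ± 7.74 against 21.0 ± 4.69 CPM per kb (SD, n = 3) and spreads that overlapped. Over the 3 kept libraries of control IgG IP, Vcam1 had 56.6 ± 11.2 and Icam2 16.1 ± 9.27 CPM per kb (SD, n = 3). Exon lengths are those of the GENCODE M21 models, while the reads were counted over whole gene spans, and part of the order turned with the length used. Per kb of gene span, Vcam1 was above Icam2 also in the 3 kept libraries of 6-3-A6 IP, with means of 9.45 and 5.26 CPM. Over the 5 libraries of 6-3-A6 IP, Ackr1 with 1.76 CPM per kb of span was above Icam1 with 1.16, and Sele with 0.0442 was above Selp with 0.0423. In the 3 kept libraries of control IgG IP, Ackr1 with 1.79 was above Icam1 with 1.73 and Sele with 0.108 above Selp with 0.0541 CPM per kb of span.

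**Figure D1:**
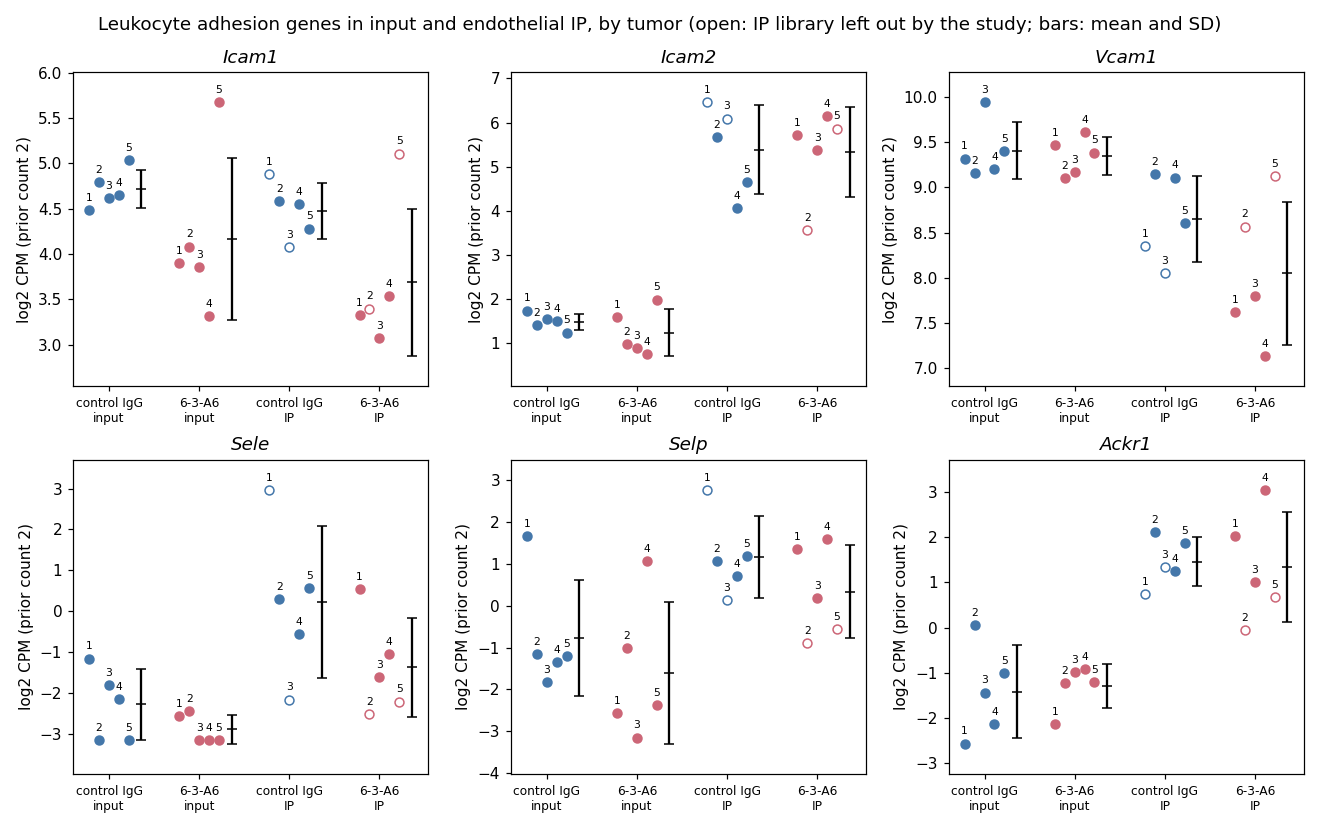
Level of each gene as log2 CPM (prior count 2, y axis) in the 20 libraries, by treatment and fraction, with the tumor number beside each point. Open points are IP libraries that the study left out, and black bars are the mean and SD of all 5 libraries. Icam2 is higher in every IP library than in every input library, while Vcam1 is lower in IP on average.

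The selectins were scarce in whole tumor RNA. Sele (chromosome 1, 163875803 to 163885246, GRCm39), which supports slow rolling, had 6, 0, 2, 2 and 0 counts in control IgG input 1 to 5 and 1, 2, 0, 0 and 0 counts in 6-3-A6 input 1 to 5. In IP it had 128, 25, 2, 9 and 35 counts in control IgG 1 to 5 and 23, 1, 5, 7 and 2 counts in 6-3-A6 1 to 5. The single library control IgG IP 1 therefore holds most of the 199 counts of its group, and the 5 libraries of 6-3-A6 IP hold 38 in all. A count of 0 allows up to 3 counts, which is 0.104 to 0.313 CPM across the 20 libraries and covers the error of counting alone. In CPM, Sele was at 7.70, 1.12, 0.110, 0.567 and 1.37 in control IgG IP and at 1.34, 0.0609, 0.212, 0.369 and 0.103 in 6-3-A6 IP. The groups overlap, and several libraries are at or below the limit of a count of 0.

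Selp (chromosome 1, 163942833 to 163977595), the selectin stored in Weibel-Palade bodies of endothelium and in platelet granules, was at 3.06, 0.338, 0.170, 0.283 and 0.320 CPM in control IgG input 1 to 5. In control IgG IP it was at 6.68, 1.97, 0.989, 1.51 and 2.16 CPM. Control IgG tumor 1 is the highest of its group in both fractions, as it is for Sele. In 6-3-A6 the input libraries had 0.0566, 0.383, 0, 1.98 and 0.0801 CPM of Selp and the IP libraries 2.45, 0.427, 1.02, 2.90 and 0.565 CPM. Tumor 4 is the highest 6-3-A6 tumor in both fractions, and the 2 treatments overlap in each fraction.

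Ackr1 (chromosome 1, 173159453 to 173161317) was at 0.0555, 0.930, 0.256, 0.113 and 0.384 CPM in control IgG input and at 1.57, 4.21, 2.42, 2.27 and 3.53 CPM in control IgG IP. The corresponding 6-3-A6 values were 0.113, 0.313, 0.394, 0.418 and 0.320 CPM in input and 3.97, 0.853, 1.91, 8.17 and 1.49 CPM in IP. Only 6-3-A6 IP 2 falls within the range of the input libraries. Cadm3, a gene on the same strand, overlaps 493 bases (26.4%) of Ackr1, so the counts of the 2 genes may not be independent.

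Icam2 (chromosome 11, 106268482 to 106278901), a ligand of the integrin LFA-1 on resting endothelium, was at 3.22, 2.54, 2.81, 2.71 and 2.24 CPM in control IgG input and at 2.89, 1.84, 1.74, 1.57 and 3.84 CPM in 6-3-A6 input. In IP it was at 87.8, 50.5, 68.0, 16.6 and 25.0 CPM in control IgG and at 52.4, 11.6, 41.4, 70.6 and 58.0 CPM in 6-3-A6. Every IP library exceeds every input library, but within IP the levels of one treatment differ several-fold, with control IgG 4 and 6-3-A6 2 lowest. Those are also the IP libraries with the lowest summed endothelial markers of their groups, 1356 and 1111 CPM.

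Icam1 (chromosome 9, 20927281 to 20940113), the cytokine-inducible ligand of LFA-1 and Mac-1, was at 22.2, 27.6, 24.5, 25.0 and 32.6 CPM in control IgG input and at 29.4, 23.8, 16.7, 23.4 and 19.3 CPM in control IgG IP. In 6-3-A6 it was at 14.8, 16.8, 14.4, 9.82 and 50.9 CPM in input and at 9.93, 10.4, 8.27, 11.5 and 34.3 CPM in IP. In both fractions 4 of the 5 6-3-A6 tumors lie below every control IgG tumor and tumor 5 lies above all of them.

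Vcam1 (chromosome 3, 115903598 to 115923337), the ligand of the integrin VLA-4, was at 638, 569, 981, 588 and 675 CPM in control IgG input and at 707, 549, 575, 780 and 668 CPM in 6-3-A6 input. The treatments overlap throughout in input. In IP it was at 326, 567, 266, 551 and 388 CPM in control IgG and at 197, 379, 222, 141 and 558 CPM in 6-3-A6. Here 3 of the 5 6-3-A6 libraries lie below every control IgG library, and these are the 3 that the study kept.

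The comparison of IP with input asks which of the genes are enriched with the endothelial tag. Icam2, Ackr1 and Selp were higher in IP, and Vcam1 was lower. Across 20 libraries, with treatment in the edgeR model, 5 of the 6 genes passed the filter on low counts and 4 of these 5 were called, 3 higher and 1 lower. Of all 14488 genes tested, 40.4% were called, 19.6% higher and 20.8% lower in IP, so a call in this comparison is common. Icam2 had the largest log2 fold change of the 5, 4.24 (standard error 0.33, edgeR adjusted p = 1.18e-09), close to those of Cdh5 at 4.36 and Pecam1 at 4.13. Its 2 fractions do not overlap, which holds for 4.82% of all genes tested.

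Ackr1 rose by 3.23 on the log2 scale in IP (standard error 0.44, edgeR adjusted p = 6.54e-06) and Selp by 1.66 (standard error 0.64, edgeR adjusted p = 0.0425). With the tumor as a block the value for Selp was 2.10 (edgeR adjusted p = 0.00128). Without the block, its call was lost when any 1 of 8 tumors was left out, namely control IgG 2, 3, 4 or 5 or 6-3-A6 1, 2, 3 or 5, with values of 1.42 to 1.73. Sele did not pass the filter. Without a filter it was higher in IP by 3.84 on the log2 scale (standard error 0.73, edgeR adjusted p = 0.000251).

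Vcam1 fell by 0.93 on the log2 scale in IP (standard error 0.21, edgeR adjusted p = 0.00175). Icam1 stood at -0.37 on the log2 scale (standard error 0.27, edgeR adjusted p = 0.280). With the tumor as a block it was also -0.37 (standard error 0.13), and Icam1 was then called (edgeR adjusted p = 0.0272). Without 6-3-A6 tumor 5, and with no block, Icam1 was called as well, at -0.34 (edgeR adjusted p = 0.0497). The block called 7394 of all 14488 genes tested. Without 6-3-A6 tumor 4, whose input stood apart, the log2 fold changes were 4.13 for Icam2, 2.98 for Ackr1, 2.05 for Selp, -0.77 for Vcam1 and -0.37 for Icam1, with the calls as over 20 libraries, and Sele passed the filter and was called at 3.79 (edgeR adjusted p = 0.00147). The median over all genes tested was -0.06. With the mean of the endothelial markers as a covariate, which is itself tied to the fraction, none of the genes was called, that is 0 of 5.

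The ratio of IP to input within each tumor followed the same grouping. Icam2 CPM was higher in IP in 10 of 10 tumors, by 6.13 to 45.1 times, the latter in 6-3-A6 tumor 4 with 15 Icam2 counts in its input and 27.3 the next highest. Ackr1 was higher in 10 of 10 tumors, by 2.72 to 35.1 times, as was Selp in 10 of 10 tumors. Among the 9 tumors with Selp counts in input its ratio lay between 1.11 and 43.3. Sele was higher in IP in 8 of 10 tumors, but 5 of these had no count in input. Icam1 was higher in IP in 2 of 10 tumors and Vcam1 in 0 of 10, with ratios of 0.576 to 1.32 and 0.181 to 0.996. Vcam1 in control IgG tumors 2 and 4 was nearly equal in both fractions, with ratios of 0.996 and 0.937.

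**Figure D2:**
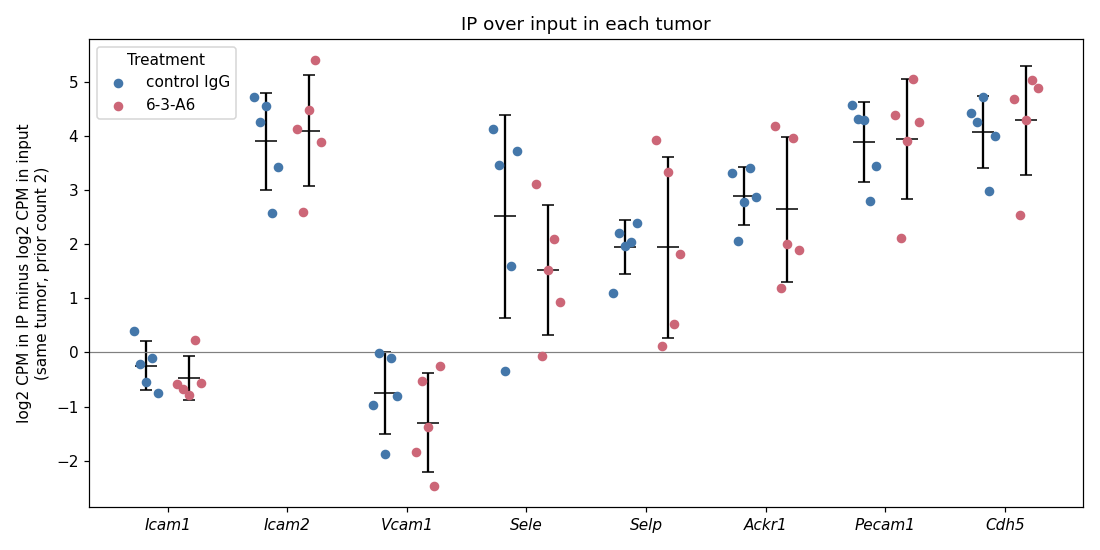
Difference in log2 CPM (prior count 2) between IP and input of the same tumor (y axis) for the 6 genes and for the endothelial markers Pecam1 and Cdh5 (x axis), with blue points for control IgG and red points for 6-3-A6. Black bars are the mean and SD of 5 tumors. Icam2 has a mean of 3.90 in control IgG and 4.09 in 6-3-A6, near Pecam1 with 3.88 and 3.94, while Vcam1 lies below 0 in every tumor.

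The levels were also set against the endothelial markers of the same library. The log2 level of Icam2 minus the mean log2 level of the 17 endothelial markers was -1.17 ± 0.25 in control IgG input, -1.26 ± 0.13 in control IgG IP, -1.17 ± 0.39 in 6-3-A6 input and -1.45 ± 0.36 in 6-3-A6 IP (SD, n = 5), so that the 2 fractions differed by less than the SD within a group, in each treatment. The same difference for Vcam1 was 6.75 ± 0.33 in control IgG input and 2.01 ± 1.29 in control IgG IP, and for Icam1 2.06 ± 0.37 and -2.17 ± 0.95 (SD, n = 5). The endothelial mean itself was at 2.65 in control IgG input and 6.64 in control IgG IP on the log2 CPM scale, so a gene that is not enriched in IP has a lower difference there.

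The comparison of treatments asks whether blocking Notch4 changes these genes in tumor endothelium. Over the 6 IP libraries kept by the study, Vcam1 and Icam1 fell with 6-3-A6, and the other 4 genes were not called. Vcam1 averaged 502 ± 99.1 CPM in control IgG IP and 187 ± 41.6 CPM in 6-3-A6 IP (SD, n = 3), which is -1.46 on the log2 scale (standard error 0.25, edgeR adjusted p = 0.0179). Icam1 averaged 22.2 ± 2.48 and 9.89 ± 1.61 CPM (SD, n = 3), which is -1.19 on the log2 scale (standard error 0.20, edgeR adjusted p = 0.0181). So 2 of 6 genes tested were called, both lower, where 4.61% of 13999 genes were called, 2.04% lower and 2.57% higher. For both genes the 2 groups do not overlap, as for 24.3% of all genes tested in these 6 libraries.

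Icam2 averaged 30.7 ± 17.6 CPM in control IgG and 54.8 ± 14.7 CPM in 6-3-A6 (SD, n = 3), which is 0.81 on the log2 scale (standard error 0.36, edgeR adjusted p = 0.245). It was called without a filter on low counts (edgeR adjusted p = 0.0102) and without control IgG IP 2 (log2 fold change 1.40, edgeR adjusted p = 0.0256). No other alternative called Icam2. Limma voom gave 0.32 (adjusted p = 0.532), and without control IgG IP 4 the value was 0.54 (edgeR adjusted p = 0.406). The log2 fold changes of Ackr1, Selp and Sele were 0.44, 0.12 and -0.78, with standard errors of 0.46, 0.41 and 0.63 and edgeR adjusted p of 0.658, 0.903 and 0.558. Single libraries moved these values, with no call. Sele lay at -1.87 without 6-3-A6 IP 1 and at -0.32 without 6-3-A6 IP 3. Without 6-3-A6 IP 4 Ackr1 turned to -0.24 and Selp to -0.18. None of these 3 genes had groups that lay apart. Markers of the other cells that make Ackr1 and Selp were read in the same libraries. Of the erythroid markers 3 of 4 tested rose with 6-3-A6, all of them globin genes, at a summed 20.6 to 45.9 CPM in control IgG IP and 29.9 to 555 CPM in 6-3-A6 IP, and of the platelet markers 0 of 5 were called. Their part in the values of Ackr1 and Selp was not tested.

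DESeq2 also called Vcam1 and Icam1 over the 6 kept libraries (adjusted p of 1.94e-06 and 0.000155), as did limma voom (0.00159 and 0.00153). The edgeR calls did not survive every removal of 1 library, while the log2 fold changes stayed negative. They lay between -1.60 and -1.29 for Vcam1 and between -1.31 and -1.07 for Icam1. Without 6-3-A6 IP 3 neither was called (log2 fold changes -1.59 and -1.07, edgeR adjusted p of 0.0602 and 0.0856). That fit called 9 of all genes tested, against 646 over the 6 libraries. Without 6-3-A6 IP 4 the call of Vcam1 was lost (-1.29, edgeR adjusted p = 0.0531), and without control IgG IP 4 that of Icam1 (-1.12, edgeR adjusted p = 0.0507). The 4 libraries were left out on a principal component analysis of the same IP expression values, so these calls come from libraries that were not chosen independently of the measurements.

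Markers of cell content moved with the treatment in the same 6 libraries. The summed macrophage markers lay between 6482 and 7606 CPM in control IgG IP and between 3204 and 3840 CPM in 6-3-A6 IP, and 6 of 11 tested macrophage markers fell, where 2.04% of all genes tested fell and 2.57% rose, among them Adgre1 by 1.39, Mrc1 by 1.54 and Csf1r by 1.23 on the log2 scale. Of the neutrophil markers 0 of 5 and of the lymphoid markers 0 of 6 were called, and of 7 mural markers Kcnj8 rose and Cspg4 fell. Of 9 fibroblast markers 2 fell, and of 6 epithelial and tumor cell markers 2 fell. The summed endothelial markers lay between 1356 and 4368 CPM in control IgG IP and between 4471 and 5553 CPM in 6-3-A6 IP, and 7 of 17 rose, among them Cldn5 and Nos3. The fit without 6-3-A6 IP 3 called only 4 of all genes tested lower and 5 higher. The counts of 6 macrophage and 7 endothelial markers therefore do not hold in that fit. Over the 6 kept libraries, with the endothelial mean as a covariate, the log2 fold changes were -1.46 for Vcam1 and -1.23 for Icam1, and neither was called (edgeR adjusted p of 0.358 and 0.401). With the macrophage mean as a covariate, which was added with the data already seen, they were 0.01 for Vcam1 and -1.19 for Icam1 (edgeR adjusted p of 0.998 and 0.818). Both covariates separate the treatments completely in these 6 libraries. Over all 10 IP libraries, where the summed macrophage markers of the treatments overlap (4535 to 7606 CPM in control IgG and 3204 to 8883 CPM in 6-3-A6), the macrophage mean as a covariate gave -0.0457 for Vcam1 (standard error 0.26) and -0.32 for Icam1 (standard error 0.23), against -0.49 and -0.60 without it, and none of these values was called. The endothelial mean as a covariate over all 10 gave -0.45 for Vcam1 (standard error 0.33) and -0.60 for Icam1 (standard error 0.38), also not called.

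Over all 10 IP libraries no gene was called, that is 0% of 13602 genes (0 by edgeR, with 292 at an unadjusted p under 0.05, and 0 by limma voom, with 2659). DESeq2, which tested 28007 genes, called 0, with 469 at an unadjusted p under 0.05. The log2 fold changes were -0.49 for Vcam1 (standard error 0.37), -0.60 for Icam1 (0.37), -0.87 for Selp (0.60), 0.20 for Ackr1 (0.52) and -0.09 for Icam2, each with an edgeR adjusted p of 1.00. Sele did not pass the filter, and without a filter it stood at -2.38 (standard error 0.81, edgeR adjusted p = 0.815). With limma voom and sample quality weights, Vcam1 stood at -1.15 (standard error 0.27) and Icam1 at -1.15 (standard error 0.23), each with an adjusted p of 0.0893. Leaving out single libraries moved the edgeR values without a call. Without 6-3-A6 IP 5 Icam1 stood at -1.19 (standard error 0.20, edgeR adjusted p = 0.387) and Vcam1 at -0.86, and without 6-3-A6 IP 4 Vcam1 stood at -0.31 and Ackr1 at -0.47. Without control IgG IP 1 Selp stood at -0.20 and Icam2 at 0.21. For 6 of 6 genes the treatments overlap. Groups that do not overlap were found for 0.206% of the genes tested.

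In input, 0% of 13683 genes were called (0 by edgeR, with 180 at an unadjusted p under 0.05, and 0 by limma voom, with 714). DESeq2, which tested 28310 genes there, called 0, with 429 at an unadjusted p under 0.05. Only Vcam1, Icam1 and Icam2 passed the filter, with log2 fold changes of -0.09, -0.33 and -0.20 and standard errors of 0.19, 0.37 and 0.31. Without 6-3-A6 input 5 Icam1 stood at -0.92 (standard error 0.20, edgeR adjusted p = 0.835) and Icam2 at -0.43, and without 6-3-A6 input 4 they stood at -0.15 and -0.09. With limma voom, Icam1 stood at -0.72 (standard error 0.20, adjusted p = 0.840). Without control IgG input 3 Vcam1 stood at 0.07, and none of these values was called. For 6 of 6 genes the treatments overlap, and 0.197% of the genes tested had groups that do not overlap. The test of whether the treatment difference differs between IP and input called 0% of 14488 genes (0 by edgeR, with 125 at an unadjusted p under 0.05, and 0 by limma voom, with 1023). DESeq2, which tested 30340 genes for it, called 0, with 333 at an unadjusted p under 0.05. The edgeR value of this interaction was -0.42 for Vcam1 (standard error 0.42) and -0.29 for Icam1 (standard error 0.56). For Vcam1 it lay between -0.76 without 6-3-A6 tumor 5 and -0.15 without 6-3-A6 tumor 4, with -0.70 without control IgG tumor 3, -0.22 without control IgG tumor 2 or 4 and -0.27 without 6-3-A6 tumor 1, and voom gave -1.06 (standard error 0.33, limma adjusted p = 0.636). For Icam1 it was -0.12 without control IgG tumor 1. None of these values was called, although the unadjusted p of Vcam1 in the limma voom fit was 0.00424.

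**Figure D3:**
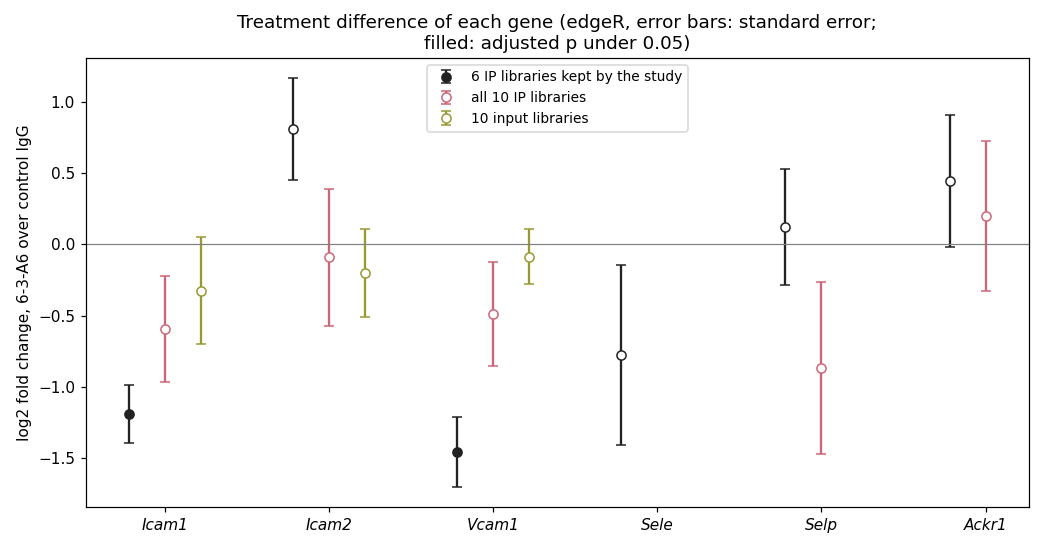
Log2 fold change of 6-3-A6 over control IgG (y axis) for each gene (x axis), over the study's 6 IP libraries, over all 10 of them and over the 10 libraries of input. Bars are standard errors of the edgeR fit, filled points have an adjusted p under 0.05, and a missing point means that the gene did not pass the filter on low counts. The only filled points are Vcam1 at -1.46 and Icam1 at -1.19, both over the 6 kept libraries.

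Across the 10 IP libraries, which share depth differences and RNA from other cells, the 6 genes fell into patterns that are given here as descriptions. The log2 CPM of Icam2 was correlated with the mean of the endothelial markers (Pearson r = 0.96, n = 10 libraries), and its nearest genes were Pear1 (0.995), Tspan7 (0.991) and Esam (0.990). Vcam1 and Icam1 were correlated with the mean of the macrophage markers (r = 0.90 and 0.89, n = 10) and with each other (r = 0.73, n = 10). With the endothelial mean their r was -0.54 and -0.03, with the fibroblast mean 0.70 and 0.75, with the lymphoid mean 0.58 and 0.64 and with the epithelial and tumor cell mean 0.58 and 0.36 (n = 10). The nearest genes of Vcam1 were Alcam (0.975), Hsp90b1 (0.961) and Loxl3 (0.953), and those of Icam1 were Pon3 (0.968), Clec5a (0.968) and C1qa (0.960), a complement gene of macrophages.

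Sele and Selp were the most alike pair among the 6 genes (r = 0.91, n = 10). Both had their highest IP level in control IgG 1, and Sele counts were few elsewhere. The nearest genes of Sele were Stoml1 (0.928), Selp (0.909) and Pigo (0.858), and those of Selp were Stoml1 (0.900), Reep2 (0.898) and Fads3 (0.886). Ackr1 was most like Cadm3 (0.938), which overlaps it, and then Ret (0.914) and Gpr182 (0.883). With the endothelial mean, r was 0.39 for Ackr1, 0.47 for Selp and 0.29 for Sele. Sele had a higher r with the mural mean (0.61), the fibroblast mean (0.53) and the epithelial and tumor cell mean (0.36), and for Ackr1 and Selp no marker list had a higher r than the endothelial one.

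**Figure D4:**
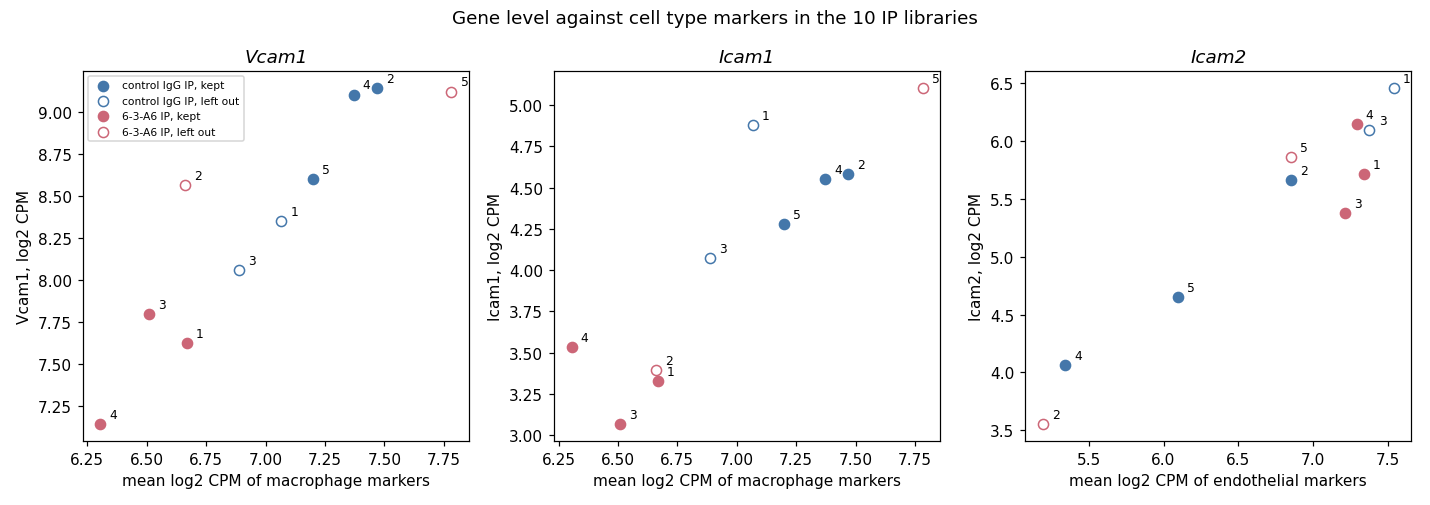
Log2 CPM (prior count 2, y axes) of Vcam1 and Icam1 against the mean log2 CPM of the macrophage markers, and of Icam2 against that of the endothelial markers (x axes), in the 10 IP libraries with the tumor number beside each point. Filled points are libraries kept by the study and open points those left out, blue for control IgG and red for 6-3-A6. The kept 6-3-A6 libraries lie lowest in Vcam1 and, with 6-3-A6 2, lowest in macrophage markers, and Icam2 follows the endothelial markers in both treatments.

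The other genes of leukocyte capture were described from lists chosen by function. Of 5 relatives of the 6 genes that were tested, 3 were higher in IP and 2 lower, where 19.6% of all genes tested were higher and 20.8% lower. Mcam and the chemokine scavenger Ackr2 were higher in IP, by 4.06 and 4.04 on the log2 scale, Ackr3 by 0.47, and Alcam was among the lower, at -0.54. Icam4 and Ackr4 had 0 counts in every library. So had the macrophage marker Itgam and 2 genes of the lists below, Angpt2, a cargo gene of Weibel-Palade bodies, and Filip1l. The reason for these zeros was not tested, so they are not read as absence of the RNA. In the 6 kept IP libraries Ackr2 rose by 1.41 with 6-3-A6 (edgeR adjusted p = 0.0337) and Alcam fell by 1.12 (edgeR adjusted p = 0.0181).

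Of 11 leukocyte counter-receptors, 10 were tested, and 6 of 10 fell with 6-3-A6 in the 6 kept libraries with a list median of -1.17, where 2.04% of all genes tested fell. They were Itgal at -1.54 and Itgb2 at -1.46, which form LFA-1, the receptor of Icam1 and Icam2, Itgax at -2.64, and Spn, Cd44 and Glg1, which bind selectins, at -1.24, -1.11 and -1.03. The median over all genes tested in the 6 kept libraries was -0.05. The fit without 6-3-A6 IP 3 called only 4 of all genes tested lower, so the 6 calls of counter-receptors do not all hold there. These genes are made mainly by leukocytes or, for Cd44 and Glg1, by many cell types, and they moved in the same libraries as the macrophage markers. Between fractions 3 of 10 were lower in IP, namely Cd44, Itgb2 and Selplg, a share near the 20.8% of all genes tested that were lower.

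Of 11 junction genes of transmigration, 9 were higher in IP and Cd99l2 was lower, with a list median of 4.13, where 19.6% of all genes tested were higher and 20.8% lower. Esam had the highest value, 4.90. In the 6 kept libraries 1 of 11, Jam2, rose with 6-3-A6, by 1.18 (edgeR adjusted p = 0.0381), where 2.57% of all genes tested rose, the share against which the next 3 counts are also to be read. Of the enzymes that make selectin ligands, Fut4 and Chst2 rose with 6-3-A6, by 1.11 and 1.12, and 4 of the 6 tested were not called. Among linkers of adhesion receptors to actin, Arhgef26 rose by 1.10 and 6 of 7 were not called, and among cargo of Weibel-Palade bodies, where Selp is stored, Edn1 rose by 1.63 and 5 of 6 were not called. Between fractions 4 of the 6 cargo genes tested were higher in IP, among them Igfbp7 by 4.05 and Vwf, the main cargo, by 3.38, and 2 were lower, Cd63 at -1.06 and Plat at -0.67. Of the ligand enzymes 3 of 7 were higher in IP and 2 lower, and of the actin linkers 5 of 7 were higher.

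Genes of NF-kB and cytokine receptors, through which Sele, Vcam1 and Icam1 are induced, showed 0 of 16 calls with 6-3-A6 in the 6 kept libraries, with a median of -0.05, and the inflammatory cytokines 0 of 5, where 4.61% of all genes tested were called. Between fractions 6 of 16 of the former were higher in IP, against 19.6% of all genes tested, with Ikbkb at 1.18 and Nfkbia at 1.06, and 1 was lower, Tnfrsf1b at -0.67. Of 6 cytokines tested between fractions Il6 and Il4 were higher in IP and Tnf, Il1b and Ifng lower. Over all 10 IP libraries and in input 0 genes of any of these lists were called.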

How the data were processed

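RNA from input and endothelial IP of 10 tumors was sequenced as single reads of 100 bases. The authors aligned reads with STAR (2.7.4a listed in the submitters' processing notes) and deposited raw counts per gene from featureCounts (2.0.1 and 1.5.2 are listed) for 20 libraries. The count table has GRCm39 coordinates, although mm10 is named, and counts cover whole gene spans with introns. Strand use in counting is not given in the sources used here. The table of the authors' own comparison holds, for 6 IP libraries, a normalized signal as deposited, which equals the raw count over a constant in 100% of genes (relative tolerance 1e-06) and identified the libraries kept. Its log2 fold changes, test score and p-value columns were made by the authors with DESeq2 and were not used. For 6-3-A6 samples the description names the other fraction than the title. Titles were followed.

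Counts were TMM-scaled, filtered with filterByExpr and tested over all genes with edgeR 4.0.16 (quasi-likelihood, Benjamini-Hochberg, threshold 0.05) in R 4.3.3. CPM was scaled by TMM, and log2 CPM used a prior count of 2. Alternatives were DESeq2 1.42.0 (Wald test, size factors), other filters (none, CPM above 1), limma 3.58.1 voom with sample weights, marker covariates, the replicate or tumor block, and each library left out. The main edgeR fit of each comparison, and no alternative, was run on simulated counts with 200 changed genes. Of 2-fold changes it called 27 of 98 in the 6 kept libraries and 33 of 88 over all 10 IP libraries. In input it called 36 of 107, between IP and input 72 of 96 and for the interaction 8 of 92. Of 4-fold changes it called, in the same order, 91 of 102, 101 of 112, 79 of 93, 97 of 104 and 69 of 108. In replicate pairs the lowest median chi-square per gene was 2.24, where sampling noise gives 0.455. IP and input of one tumor are paired by design, and their deviations correlated between -0.076 and 0.696. All 6 genes are reported whatever their values, with the 3 genes of highest Pearson correlation over IP libraries, and of other lists the called genes and at most the extreme value. The genes and lists were chosen with earlier results of these data known. One gene of these lists is not reported here.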

Additional observations from a re-analysis of the deposited data

Results flagged for a closer look

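In groups of 5 libraries a value was singled out when its gap to the nearest other exceeded 0.71 of the range. Of 36 groups tested 9 had such a value. The cut-off gives about 1 in 20 for normally distributed values, which CPM from few counts need not be. An excess over chance is therefore not shown, and values of the same tumor are not independent. Icam1 in 6-3-A6 tumor 5 stood above the other 4 tumors in both fractions, at 50.9 CPM in input and 34.3 CPM in IP. The IP library of this tumor also had the highest summed macrophage markers of the 6-3-A6 IP group, 8883 CPM, the highest lymphoid markers, 445 CPM against 89.0 to 199 CPM, and the highest fibroblast markers, 3032 CPM against 702 to 1525 CPM, and their part in the Icam1 value was not tested.

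Both selectins were high in control IgG tumor 1, with Selp at 3.06 CPM in input and 6.68 CPM in IP and Sele at 7.70 CPM in IP. The summed fibroblast markers of this tumor were the highest of its group, 4784 CPM against 989 to 2050 CPM in input and 3634 CPM against 612 to 3201 CPM in IP, as were its mural markers in input, 244 CPM against 131 to 191 CPM. Their part in the selectin values was not tested. Sele was also singled out in 6-3-A6 IP 1 at 1.34 CPM, and Selp in 6-3-A6 input 4 at 1.98 CPM. Vcam1 was singled out in control IgG input 3 at 981 CPM. The log2 ratio of IP to input of Icam1 was highest in 6-3-A6 tumor 4, at 0.22, where the other 4 tumors of the group lie below 0. This ratio and the Selp value in 6-3-A6 input 4 rest on the input library that stood apart in TMM factor, 0.681, and in its endothelial mean, and the part of this in both values was not tested.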

How the results depend on the processing

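Of 394 log2 fold changes of the 6 genes under alternatives, 336 kept their direction and their side of the threshold, 17 lost a call, 4 gained one and 37 changed sign. In the 6 kept IP libraries the number of the 6 genes called was 0 with the endothelial covariate, 0 with the macrophage covariate and between 0 and 3 when 1 library was left out. Between IP and input it was 0 with the endothelial covariate. Over all genes, 1194 were called in the 6 kept libraries by DESeq2, 1459 without a filter, 1879 with voom, 1 with the endothelial and 0 with the macrophage covariate, 9 to 653 with 1 library left out, against 646. Between IP and input 441 were called with the endothelial covariate and 3416 in the tumors kept, 7394 with the tumor block, 7384 with voom and 6715 with DESeq2, against 5856.

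Signs changed as follows, and the cause was not tested. In the 6 kept libraries, voom gave -0.53 for Selp and -0.54 for Ackr1, the endothelial covariate -0.22 for Selp, -0.27 for Ackr1 and -0.29 for Icam2, and the macrophage covariate 0.86 for Sele, -0.66 for Selp, -1.19 for Ackr1 and 0.0114 for Vcam1. With 1 library left out, Selp lay between -0.18 and 0.47 and Ackr1 between -0.24 and 0.83. Over all 10 IP libraries, voom gave -0.39 for Ackr1 and 0.0097 for Icam2, and Ackr1 stood at -0.0656 with the endothelial and -0.31 with the macrophage covariate. With 1 library left out, Icam2 lay between -0.30 and 0.21 and Ackr1 between -0.47 and 0.44. In input, Vcam1 lay between -0.15 and 0.065 with 1 library left out. Between IP and input the endothelial covariate gave 0.51 for Vcam1 and -0.26 for Icam2. For the interaction, DESeq2 gave -0.00628 for Selp, voom -0.54 for Ackr1, and the endothelial covariate -0.0851 for Selp, -0.0534 for Ackr1 and -0.15 for Icam2. With 1 tumor left out, Selp lay between -0.83 and 1.19, Ackr1 between -0.26 and 0.59 and Icam2 between -0.18 and 0.35.

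With the replicate block over all 10 IP libraries Ackr1 was at -0.12, Icam1 at -0.83 and Vcam1 at -0.61, and no gene was called. With the tumor block in the interaction, Selp was at -0.0372 and Ackr1 at -0.29. The block added the call of Icam1 between IP and input, as did leaving out 6-3-A6 tumor 5, and changed no other call of the 6 genes. Numbers shared across treatments are numbers only: their correlations lay between -0.326 and 0.364. No block could be fitted for the 6 kept libraries, whose groups share 1 number. Depth limits Sele, Selp and Ackr1 in input, where a library often holds fewer than 20 counts.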
